A study of Homo sapiens with 2 samples.

Results

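The genes described here encode 54 enzymes and subunits that modify transfer RNAs or process their ends, taken from a list of symbols and found in both libraries by their NCBI gene ID. They are 54 of the 27685 gene IDs in the tables, and all 54 were measured, that is, listed at 1 TPM or more in at least 1 library, as were 14078 genes in all. TPM is a transcript abundance corrected for length and scaled to the sum of all transcripts in a library. The RNA came from H1299, a cell line of human non-small cell lung cancer. The samples were 1 library of cells given 5 mM metformin, a biguanide antidiabetic known to inhibit mitochondrial complex I, and 1 library of cells without it (control), both from cells in RPMI medium with serum. The sources used here do not say how long the treatment lasted. With 1 library per group there is no replicate check and no test, and each 95% interval below covers the counting of reads only. The libraries held an estimated 31.7 M (metformin) and 28.7 M (control) read pairs. The epithelial keratin gene KRT18 was listed at 954 TPM in the metformin library and 553 TPM in control, and KRT8 at 521 and 269 TPM. The mesenchymal gene VIM stood above both, at 4962 TPM in the metformin library and 4378 TPM in control. The leukocyte gene PTPRC was listed at 0.027 TPM in the metformin library and 0 in control.

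Transfer RNAs carry amino acids to the ribosome and are the most densely modified RNAs of the cell. Their precursors are cut at the 5′ end by RNase P and at the 3′ end by RNase Z, after which a CCA tail is added. Modifications of the anticodon loop tune the reading of codons, and those of the body hold the fold. Mitochondria make their own transfer RNAs, which are matured by a set of nuclear-encoded enzymes partly separate from those of the cytosol and nucleus.

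Most of these genes were listed at a lower level in the metformin library. The TPM difference was taken as log2(TPM + 1), metformin minus control, and 48 of the 54 members (88.9%) lay below 0, or 39 (72.2%) after the differences were centred on the median of well-expressed genes. Over all measured genes 59.7% lay below 0 (49.1% after centring), and over measured protein-coding genes 60.2%. The median difference of the members was -0.24, with a middle 50% from -0.38 to -0.08, beside a median of -0.08 over all measured genes, whose middle 50% ran from -0.29 to 0.15. The differences were small: 4 members were lower by 1.5-fold or more on this scale and 0 were higher by that much, against a background of 7.03% of measured genes lower and 5.4% higher. That share of members, 7.41%, was close to the background. Past 2-fold there was 1 lower member and 0 higher, with 1.24% of measured genes lower and 1.51% higher. Summed over the 54 members, the level was 1756 TPM in the metformin library and 2035 TPM in control, a ratio of 0.863. In bulk RNA, fewer cells with a transcript and less of it per cell cannot be told apart.

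The reads behind a member ranged from an estimated 79 to 5376 pairs in a library. The 95% counting interval of the ratio of TPM, metformin over control, lay below 1 for 36 members, above 1 for 5 and included 1 for 13. No such counts over all measured genes stand beside these, so they are not read as a excess over the background. The reference of 1 also leaves out the shift that centring removes, which raises every difference. Among the 36, TRMT112, TRIT1 and POP1 then stood at -0.03, -0.04 and -0.05. The difference of 12 members turned its sign under at least 1 other scaling, unit, pseudocount or trend correction, and no direction is read for them: TRMT1, TRMT2A, TRMT10A, ELP2, ELP6, PUS1, TRUB1, ADAT2, CDK5RAP1, OSGEP, ELAC1 and POP4. Exons of 20 members overlap those of a gene of the tables on the other strand, and those of METTL1 and TP53RK overlap CYP27B1 and SLC13A3 on their own strand. The kit marks the strand, but the sources used here do not say if the counting took it into account, so such reads may be shared.

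**Figure D1:**
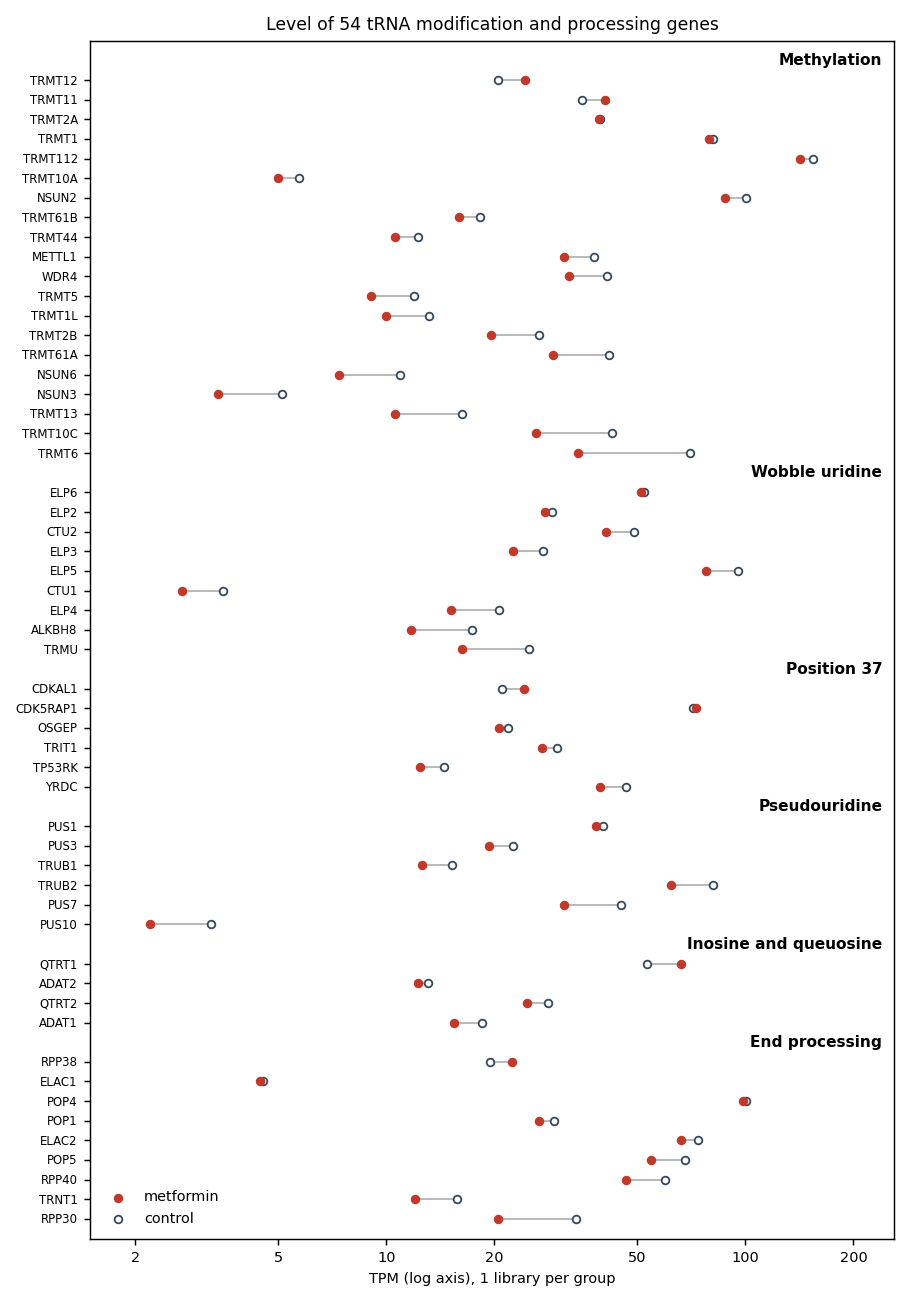
Level of each of the 54 genes in TPM (log axis) in the metformin library (filled) and the control library (open), grouped by role and ordered within a role by the ratio of metformin over control; each point is 1 library. The metformin point lies left of the control point for 48 of the 54 genes, and the widest gap is that of TRMT6, at 34.2 TPM in metformin and 70.3 TPM in control.

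TRMT6 stood apart from the rest. It is the non-catalytic subunit of the methyltransferase that puts a methyl group on adenine 58 of cytosolic transfer RNAs. It was listed at 34.2 TPM in the metformin library and 70.3 TPM in control, a ratio of 0.487 (0.455 to 0.520). TRMT6 (NCBI gene 51605) lies on the minus strand of chromosome 20 at 5918479 to 5931204 of hg19. Its difference of -1.02 lay just past 2-fold, and it no longer passed after centring (-0.93) or with the trend over GC content and length removed (-0.91). Only 1.14% of measured genes had a lower difference. Its catalytic partner TRMT61A was listed at 29.2 TPM in metformin and 41.8 TPM in control, a ratio of 0.699 (0.649 to 0.752), so both subunits were lower, TRMT6 by more, and their intervals did not overlap. In control TRMT6 was the more abundant subunit, whereas in metformin the levels lay closer together. With the trend over GC content and length removed, the difference of TRMT61A was -0.67 instead of -0.50, nearer to the -0.91 of TRMT6.

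The other members lower by 1.5-fold or more on the scale of log2(TPM + 1) were RPP30, TRMT10C and TRMU, and each lost that call under some settings. TRMT13 and NSUN3 were also lower by more than 1.5-fold as plain TPM ratios (0.653 and 0.663), but not on that scale (-0.57 and -0.48). RPP30, a protein of nuclear RNase P that is also found in the related RNase MRP, was listed at 20.5 TPM in metformin and 33.7 TPM in control, a ratio of 0.610 (0.551 to 0.674). TRMT10C, which methylates position 9 of mitochondrial transfer RNAs and is a subunit of the mitochondrial RNase P, was listed at 26.2 TPM in metformin and 42.6 TPM in control, a ratio of 0.615 (0.556 to 0.680). TRMU, the enzyme that adds sulfur to the wobble uridine of mitochondrial transfer RNAs, was listed at 16.2 TPM in metformin and 24.9 TPM in control, a ratio of 0.651 (0.568 to 0.747). With the trend over GC content and length removed, the differences of RPP30 and TRMT10C were -0.55 and -0.51, short of 1.5-fold, as was that of TRMU after centring (-0.50), with FPKM (-0.52) and with a pseudocount of 5 (-0.495). At the other end stood QTRT1, the catalytic subunit of the enzyme that exchanges guanine 34 for queuine, a base that animals take from food and gut bacteria. It was listed at 66.0 TPM in metformin and 53.1 TPM in control, a ratio of 1.24 (1.14 to 1.36), the highest of the 54 as deposited. With the trend over GC content and length removed, its difference was 0.16 instead of 0.31, and those of TRMT11 (0.42), CDKAL1 (0.27) and TRMT12 (0.24) lay above it.

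The promoters of TRMT6, RPP30, TRMT10C, TRMU and QTRT1 are shown because their transcripts mark the ends of the range of TPM ratios as deposited. Each line gives the 150 bases before the annotated start, 5′ to 3′ on the gene's strand, from RefSeq on GRCh38.p14. Capitals mark CCGGAAG, the core recognised by ETS factors, or CACGTG, the E-box recognised by MYC and related factors, read on either strand.
TRMT6, chr20:5950534-5950683, minus strand: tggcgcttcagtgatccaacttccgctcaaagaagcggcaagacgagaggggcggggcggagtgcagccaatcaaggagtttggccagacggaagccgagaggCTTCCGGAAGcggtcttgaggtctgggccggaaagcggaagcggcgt
RPP30, chr10:90871824-90871973, plus strand: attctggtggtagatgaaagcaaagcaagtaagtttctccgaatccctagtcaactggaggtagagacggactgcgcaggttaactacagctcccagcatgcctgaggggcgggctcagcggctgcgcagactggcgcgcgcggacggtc
TRMT10C, chr3:101561718-101561867, plus strand: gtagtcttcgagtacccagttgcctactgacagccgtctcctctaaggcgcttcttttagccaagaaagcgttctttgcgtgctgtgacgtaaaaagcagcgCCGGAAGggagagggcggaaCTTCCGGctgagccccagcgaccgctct
TRMU, chr22:46335564-46335713, plus strand: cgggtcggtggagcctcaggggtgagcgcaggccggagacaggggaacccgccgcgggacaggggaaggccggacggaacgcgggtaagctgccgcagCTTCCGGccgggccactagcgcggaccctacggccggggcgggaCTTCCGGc
QTRT1, chr19:10701289-10701438, plus strand: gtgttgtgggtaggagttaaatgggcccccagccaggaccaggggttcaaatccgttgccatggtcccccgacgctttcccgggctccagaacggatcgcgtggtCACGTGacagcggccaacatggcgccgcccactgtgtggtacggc

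CCGGAAG, chosen after these sequences had been seen, was found in TRMT6, TRMT10C and TRMU and in no such form in RPP30 and QTRT1. In TRMT6 a forward and a reverse copy overlap in 1 run. RefSeq promoters of 300 bases, 250 before and 50 after the start, were matched for 46 of the 54 members. Of these, 17 (37.0%) held CCGGAAG on either strand, beside 14.2% of 15843 protein-coding promoters and 10.7% of all 27305 promoters. The promoters set beside those of the members, here and below, include genes that were not measured, whereas all 54 members were measured. The median difference was -0.36 over the 17 members with CCGGAAG and -0.24 over the 29 without it. Both ranges were wide (-1.02 to 0.20 and -0.69 to 0.31). TRMT6, TRMT10C and TRMU, seen before the motif was chosen for being low, are among the 17. With these genes left out, the middle values of the rest were -0.28 (CTU1) and -0.24 (YRDC), close to the -0.24 without the motif. The lower median is thus largely built in by the choice, as is part of the higher share. Neither is a test of the motif. CACGTG was found in 4 members (8.7%), QTRT1, TRMT6, PUS7 and TRMT61A, beside 8.88% of protein-coding promoters, and the first of these was higher in metformin while the other 3 were lower. TGATGNAA, which is part of the element bound by ATF4, was found in CDKAL1 and TRUB1, 4.35% of members beside 2.53% of protein-coding promoters. A match is a description of the letters and not evidence of a bound factor.

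Among the 20 methylation genes, 18 lay below 0, beside 59.7% of all measured genes, with a median difference of -0.31. Of these, TRMT1, TRMT2A and TRMT10A turned in sign under other settings. The counts by role, here and below, are as deposited. Centring lowered the share below 0 from 88.9% to 72.2% over all members and from 59.7% to 49.1% over all measured genes. Among the methylation genes with a difference of less than 0.20 in size were the 3 most abundant of the 20, TRMT112, NSUN2 and TRMT1. TRMT112, a small partner protein that stabilises several methyltransferases, was listed at 142 TPM in metformin and 154.5 TPM in control, and NSUN2, the main cytosine-5 methyltransferase of cytosolic transfer RNAs, at 87.7 TPM in metformin and 100.3 TPM in control. TRMT1, which dimethylates guanine 26, had 79.1 TPM in metformin and 81.3 TPM in control. TRMT2A, which makes the methyluridine at position 54, was at 39.2 TPM in each library. The m7G enzyme of position 46, METTL1 with its scaffold WDR4, was lower in both parts: METTL1 was listed at 31.2 TPM in metformin and 37.9 TPM in control, and WDR4 at 32.2 TPM in metformin and 41.2 TPM in control. Their ratios, 0.823 (0.734 to 0.921) and 0.781 (0.715 to 0.854), could not be told apart by the counting of reads.

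Lower levels with ratios under 0.8 were listed for several less abundant methyltransferases. TRMT13, which methylates the ribose at position 4, had 10.6 TPM in metformin and 16.2 TPM in control, a ratio of 0.653 (0.577 to 0.738), though its exons overlap LRRC39 on the other strand. NSUN6, which acts on cytosine 72 of the acceptor stem, had 7.38 TPM in metformin and 10.9 TPM in control. TRMT1L, a relative of TRMT1 found in the nucleolus, had 9.97 TPM in metformin and 13.2 TPM in control, and TRMT5, which methylates guanine 37 next to the anticodon, 9.05 TPM in metformin and 11.9 TPM in control. The transcripts of these 4 genes are rich in A and U, with a GC content between 34.3% and 40.5%. With the trend over GC content and length removed, the difference was -0.27 instead of -0.57 for TRMT13, -0.19 instead of -0.37 for TRMT1L and -0.21 instead of -0.37 for TRMT5. TRMT44, which methylates uridine 44, was listed at 10.5 TPM in metformin and 12.2 TPM in control, and TRMT10A, for position 9 of cytosolic transfer RNAs, at 5.00 TPM in metformin and 5.70 TPM in control.

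The methylation genes above 0 were TRMT12 and TRMT11. TRMT12, now named TYW2, takes part in making wybutosine in the phenylalanine transfer RNA, and was listed at 24.3 TPM in metformin and 20.5 TPM in control, a ratio of 1.19 (1.06 to 1.33). TRMT11, which methylates guanine 10 together with TRMT112, was listed at 40.5 TPM in metformin and 35.0 TPM in control, a ratio of 1.16 (1.05 to 1.27). Each interval lay above 1, TRMT11 being so with a transcript of 37.2% GC, in a range of GC content where the median difference of all genes was -0.25.

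The wobble uridine at position 34 is built up by Elongator, which adds a carboxymethyl group, then by ALKBH8, which methylates it, and by the CTU1 and CTU2 complex, which exchanges oxygen for sulfur. The group also counts the mitochondrial TRMU, which had its lowest difference (-0.59). All 9 genes of this group lay below 0, beside 59.7% of all measured genes, with a median difference of -0.28. Of these, ELP2 and ELP6 turned in sign under other settings. ALKBH8 had 11.7 TPM in metformin and 17.4 TPM in control, a ratio of 0.676 (0.610 to 0.749). Within Elongator the subunits differed: ELP4 was lowest, at 15.1 TPM in metformin and 20.7 TPM in control, a ratio of 0.732 (0.686 to 0.782). ELP3, the catalytic subunit, had 22.5 TPM in metformin and 27.4 TPM in control, and ELP5 77.6 TPM in metformin and 95.4 TPM in control, with ratios of 0.823 and 0.814. ELP2 and ELP6 had ratios of 0.955 and 0.978, with intervals that included 1. ELP4 shares exon sequence with PAX6, and ELP5 with CTDNEP1, on the other strand.

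Of the thiolase, CTU1 was near the bottom of the measured range, at 2.70 TPM in metformin and 3.50 TPM in control, with an interval of 0.563 to 1.05. CTU2 had 41.0 TPM in metformin and 49.0 TPM in control, a ratio of 0.837 (0.765 to 0.914).

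Position 37, next to the anticodon, carries bulky modifications that steady the pairing of codon and anticodon. Grouped here are 6 genes of its bulky modifications, without TRMT5 and ADAT1, which also act there. This group had the median nearest to 0 of the 6 roles, -0.10, with 4 below 0, beside 59.7% of all measured genes. Of the 4, OSGEP turned in sign under other settings, as did CDK5RAP1. CDKAL1, which adds a methylthio group to cytosolic lysine transfer RNA and is known for variants linked to type 2 diabetes, was listed at 24.2 TPM in metformin and 21.0 TPM in control, a ratio of 1.15 (1.05 to 1.26). CDK5RAP1, its mitochondrial relative, had 72.9 TPM in metformin and 71.6 TPM in control. TRIT1, which adds an isopentenyl group, had 27.2 TPM in metformin and 29.8 TPM in control, a ratio of 0.912 (0.855 to 0.973). YRDC, which makes the threonylcarbamoyl intermediate used at this position, had 39.3 TPM in metformin and 46.6 TPM in control, a ratio of 0.842 (0.771 to 0.919).

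That intermediate is transferred to cytosolic transfer RNA by the KEOPS complex. OSGEP, its catalytic subunit, was listed at 20.6 TPM in metformin and 21.8 TPM in control, and TP53RK, its kinase-like subunit, at 12.4 TPM in metformin and 14.4 TPM in control. Of the 3 subunits that are not among the 54, LAGE3 had 62.5 TPM in metformin and 70.8 TPM in control, a ratio of 0.882, and the other two were lower: GON7 had 33.6 TPM in metformin and 61.4 TPM in control, a ratio of 0.547 (0.490 to 0.611), and TPRKB 74.1 TPM in metformin and 114.6 TPM in control, a ratio of 0.647 (0.585 to 0.715). Within KEOPS the intervals of OSGEP and GON7 did not overlap. With the trend over GC content and length removed, LAGE3 (-0.36) and TPRKB (-0.37) lay close together, instead of -0.18 and -0.62 as deposited. After that step GON7 stood at -0.69 and OSGEP at -0.11.

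All 6 pseudouridine synthases, which turn uridine into its isomer pseudouridine, lay below 0, beside 59.7% of all measured genes. Their median difference was -0.32, and PUS1 and TRUB1 turned in sign under other settings. PUS7, which acts at position 13 among other sites, had 31.2 TPM in metformin and 45.0 TPM in control, a ratio of 0.693 (0.647 to 0.741). TRUB2, which acts in mitochondria, had 62.2 TPM in metformin and 81.4 TPM in control, a ratio of 0.765 (0.735 to 0.795) and the most read pairs of the 54 genes in control. PUS10, at 2.20 TPM in metformin and 3.26 TPM in control, was the least abundant of the 54 in each library, with CTU1 next above it. PUS3 had 19.3 TPM in metformin and 22.6 TPM in control, TRUB1, the synthase for position 55, 12.6 TPM in metformin and 15.3 TPM in control, and PUS1 38.4 TPM in metformin and 40.0 TPM in control. PUS1, which modifies both cytosolic and mitochondrial transfer RNAs, thus had the smallest difference of the group.

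Among the genes for inosine and queuosine the partners of one enzyme stood on opposite sides of 1. QTRT2, the partner of QTRT1, was listed at 24.7 TPM in metformin and 28.3 TPM in control, a ratio of 0.873 (0.809 to 0.941), against the ratio of 1.24 for QTRT1. ADAT2, the catalytic subunit of the deaminase that makes inosine at position 34, had 12.2 TPM in metformin and 13.1 TPM in control. Its partner ADAT3, not among the 54, had 5.42 TPM in metformin and 9.29 TPM in control, a ratio of 0.584 (0.459 to 0.740). ADAT1, which makes inosine at position 37 of alanine transfer RNA, had 15.5 TPM in metformin and 18.5 TPM in control.

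The 9 genes of end processing had a median difference of -0.16, and 8 lay below 0, beside 59.7% of all measured genes. Of the 8, ELAC1 and POP4 turned in sign under other settings. RNase P is a ribozyme in the nucleus with a set of proteins, most of them shared with RNase MRP. Beside RPP30, RPP40 had 46.5 TPM in metformin and 59.9 TPM in control, a ratio of 0.777 (0.711 to 0.848), and POP5 54.5 TPM in metformin and 68.0 TPM in control, a ratio of 0.802 (0.728 to 0.882). POP1, the largest protein of the complex, had 26.6 TPM in metformin and 29.4 TPM in control, and POP4 98.7 TPM in metformin and 100.7 TPM in control. RPP38 was the member above 0, at 22.4 TPM in metformin and 19.5 TPM in control, a ratio of 1.15 with an interval from just above 1 up to 1.33, but its exons overlap those of NMT2 on the other strand. The transcripts listed here for proteins of this complex thus had TPM ratios from 0.610 to 1.15.

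At the 3′ end, ELAC2, the long RNase Z of nucleus and mitochondria, had 66.1 TPM in metformin and 74.0 TPM in control, a ratio of 0.894 (0.853 to 0.938). ELAC1, the short form in the cytosol, had 4.46 TPM in metformin and 4.55 TPM in control. TRNT1, which adds the CCA tail in both compartments, had 12.0 TPM in metformin and 15.7 TPM in control, a ratio of 0.766 (0.665 to 0.881), though it shares exon sequence with CRBN on the other strand.

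**Figure D2:**
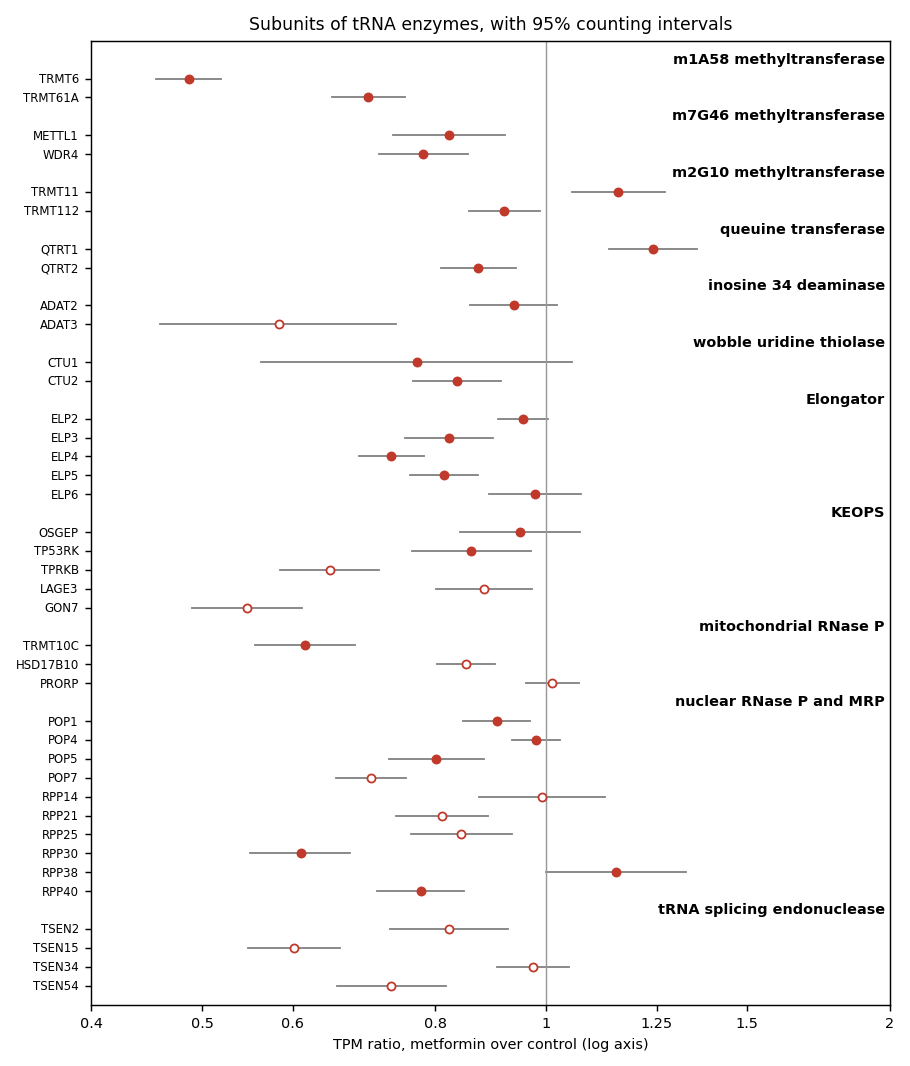
Ratio of TPM, metformin over control (log axis), for the subunits of enzymes that act as complexes; bars are 95% intervals for the counting of reads in 1 library per group, filled points are among the 54 genes and open points are other genes of the pathway. Some subunits of one enzyme lie apart: QTRT1 and QTRT2 at 1.24 and 0.873, and TRMT6 and TRMT61A at 0.487 and 0.699. Others have overlapping intervals, as METTL1 and WDR4 do, and CTU1 and CTU2.

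Enzymes assigned to mitochondria were set against those assigned to the cytosol and nucleus. The assignment does not show that each of them, TRUB2 among them, acts on transfer RNAs there. The 7 mitochondrial genes had a median difference of -0.42, with 6 below 0 and 2 lower by 1.5-fold or more. The 38 cytosolic and nuclear genes had a median of -0.25, with 34 below 0 and 2 lower by 1.5-fold or more. The 9 genes whose products act in both compartments had a median of -0.16, with 8 below 0 and 0 past 1.5-fold. Over all measured genes 59.7% lay below 0 and 7.03% were lower by 1.5-fold or more. After centring, 6 of 7 mitochondrial, 6 of 9 dual and 27 of 38 cytosolic and nuclear genes lay below 0, beside 49.1% of all measured genes, and 1 mitochondrial gene and 2 cytosolic and nuclear ones were lower by 1.5-fold or more. Summed levels were 216 TPM in metformin and 270.3 TPM in control for the mitochondrial genes, 362 and 381 TPM in metformin and control for the dual ones, and 1177 and 1384 TPM in metformin and control for the cytosolic and nuclear ones, ratios of 0.801, 0.950 and 0.851. The ranges overlapped widely, from -0.68 to 0.03 in the mitochondrial group and from -1.02 to 0.24 in the cytosolic and nuclear group. The mitochondrial median lay 0.17 below the other on this scale (-0.17), but with the dual enzymes counted as mitochondrial the order turned and the difference was 0.03, so no separation of the compartments is read from these values.

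**Figure D3:**
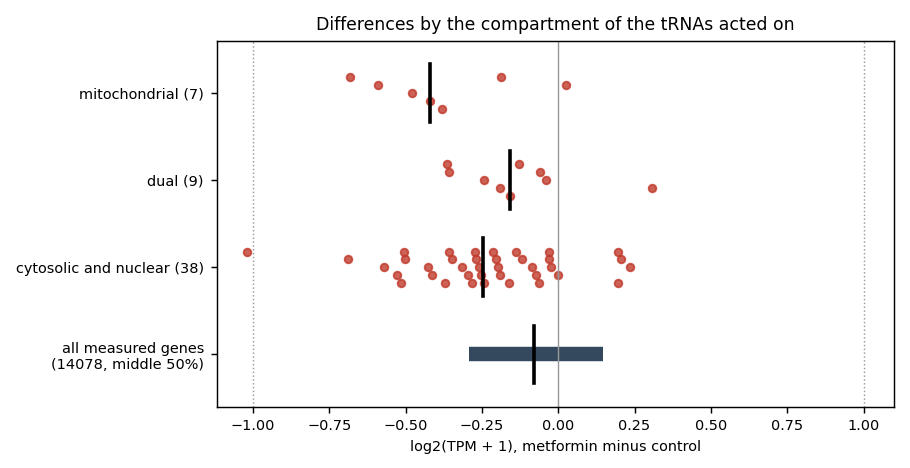
Difference of log2(TPM + 1), metformin minus control, for each gene by the compartment it was assigned to. Points are genes, black lines are medians, the bar is the middle 50% of all 14078 measured genes, and dotted lines mark 2-fold. The medians lie at -0.42 (mitochondrial), -0.16 (dual) and -0.25 (cytosolic and nuclear), with ranges that overlap, beside -0.08 for all measured genes.

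The 7 pairs of a mitochondrial enzyme and its cytosolic or nuclear relative or counterpart give the same contrast pair by pair. The assignment of NSUN2 and TRUB1 to the cytosol and nucleus is uncertain. With both counted as dual, the mitochondrial and the cytosolic and nuclear medians stayed at -0.42 and -0.25. Their pairs would then no longer set 1 compartment against the other. TRMT2B, which makes methyluridine in mitochondrial RNA, had 19.6 TPM in metformin and 26.5 TPM in control, a ratio of 0.739 (0.677 to 0.806), and the interval of TRMT2A was 0.928 to 1.07. NSUN3, which starts the formylcytosine of mitochondrial methionine transfer RNA, had 3.39 TPM in metformin and 5.12 TPM in control, a ratio of 0.663 (0.569 to 0.772), and NSUN2 a ratio of 0.875 (0.836 to 0.916). TRMT10C and TRMT10A had ratios of 0.615 and 0.876, and the interval of TRMT10A, 0.731 to 1.05, lay above that of TRMT10C. In these 3 pairs the mitochondrial gene had the lower ratio with intervals that did not overlap. The adenine 58 methyltransferases went the other way. TRMT61B, the mitochondrial one, had 15.9 TPM in metformin and 18.3 TPM in control, a ratio of 0.871 (0.757 to 1.002). This lay above the ratio of TRMT61A, whose interval ended at 0.752, so the intervals of estimated pairs only just missed each other. Exons of TRMT61B also overlap those of SPDYA on the other strand. For TRUB2 and TRUB1, CDK5RAP1 and CDKAL1, and TRMU and CTU1, the mitochondrial gene had the lower ratio, with overlapping intervals: TRUB1 had 0.824 (0.735 to 0.923), CDK5RAP1 1.02 (0.956 to 1.09) and CTU1 0.770 (0.563 to 1.05).

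Subunits of the mitochondrial RNase P, a protein enzyme with no RNA, differed as well. Beside TRMT10C at 0.615, HSD17B10, a dehydrogenase that serves as its second subunit, had 171 TPM in metformin and 200.6 TPM in control, a ratio of 0.851 (0.803 to 0.902), and PRORP, the nuclease, 34.1 TPM in metformin and 33.6 TPM in control, a ratio of 1.01 (0.960 to 1.07). The intervals of these 3 subunits did not overlap. With the trend over GC content and length removed, TRMT10C and HSD17B10 lay closer together, at -0.51 and -0.35 instead of -0.68 and -0.23 as deposited. After that step PRORP stood at 0.12.

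Other genes of the pathway, 54 in number and 53 of them measured, were examined alike. Of these, 43 (81.1%) lay below 0, beside 59.7% of all measured genes, and 6 (11.3%) were lower by 1.5-fold or more, beside 7.03%, with 0 higher by that much and a median difference of -0.18. After centring 33 (62.3%) lay below 0 and 3 were lower by 1.5-fold or more, and with the trend over GC content and length removed 38 (71.7%) and 4. High ratios were those of RPUSD3, a mitochondrial pseudouridine synthase, at 1.30 (1.20 to 1.41), and MTO1, which modifies the wobble uridine in mitochondria, at 1.09 (1.06 to 1.12). The lowest were GON7 at 0.547, TRDMT1, a cytosine methyltransferase of aspartate transfer RNA, at 0.548 (0.481 to 0.623), and ADAT3 at 0.584.

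The differences went with the base composition of the transcripts. Over the 54 members the Spearman correlation of the difference with the GC content of the transcript was 0.34, beside 0.35 over 13186 measured genes, in each case a description across genes that share the same 2 libraries. The measured genes were split by GC content into 5 bins of equal size. In the bin with the lowest GC content, up to 40.7%, the median difference was -0.25 over all genes and -0.41 over the 15 members in it. In the bin with the highest, from 58.4%, it was 0.07 over all genes and -0.06 over the 7 members in it. In each bin the members had the lower median. With the trend over GC content and length removed across all genes, the median of the members was -0.20 beside -0.08 for all measured genes, and 45 of 54 lay below 0 (83.3%, beside 60.2% of all measured genes). After that step TRMT6 stood at -0.91, the mitochondrial genes at a median of -0.44 and the cytosolic and nuclear genes at -0.20. The same step moved the differences of ELP4, TRNT1 and PUS10 to -0.21, -0.14 and -0.18, nearer to 0 than the -0.43, -0.36 and -0.41 as deposited, and that of CTU2 to -0.41, further from 0 than the -0.25 as deposited. The part of base composition in the difference of any single gene was not tested.

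**Figure D4:**
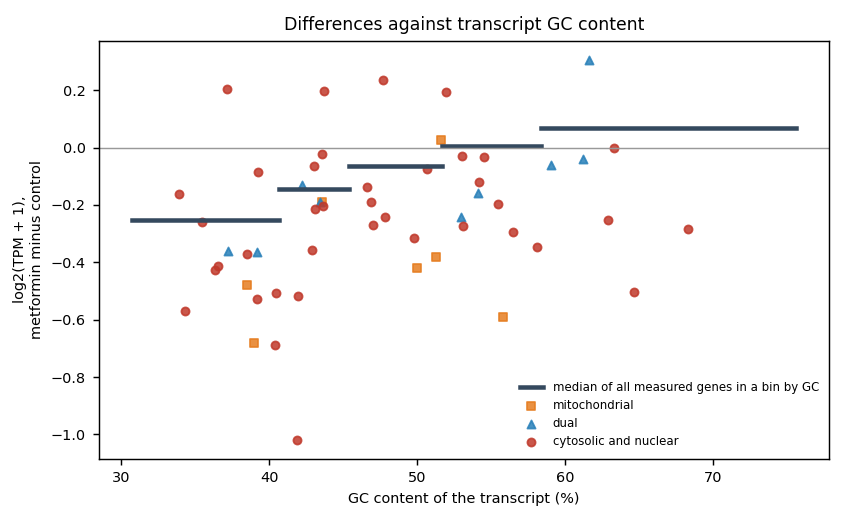
Difference of log2(TPM + 1), metformin minus control, against the GC content of the transcript in percent for the 54 genes, with symbols for the compartment; each horizontal line is the median of all measured genes in 1 of 5 bins by GC content. The lines lie at -0.25 in the bin of lowest and at 0.07 in that of highest GC content, and in each bin the members' median lies below the line.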

How the data were processed

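RNA of H1299 cells with and without 5 mM metformin was sequenced as 1 library each. A stranded TruSeq mRNA kit, a NovaSeq instrument and mapping to hg19 with Bowtie2 are stated per the labels' protocols, and Trimmomatic 0.38 and HISAT2 per the submitters' processing notes. How the abundances were calculated was not stated there.

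The deposited tables, per the file headers, list coverage, FPKM and TPM per gene, all computed by the authors. The coverage signal as deposited, divided by FPKM, gave 6.40 Gb (metformin) and 5.80 Gb (control) of aligned bases, and with pairs of 202 bases the read pairs. Pairs per gene were estimated as FPKM times the length of the gene's canonical transcript (GENCODE 44, GRCh37), and exact (Clopper-Pearson) 95% intervals from these; PCR duplicates can make them too narrow. Rows of one gene ID were summed. RefSeq symbols matched 27559 of 27685 IDs.

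Differences are of log2(TPM + 1), a scale that understates low genes; ratios are of plain TPM. A gene counted as past 1.5-fold at a difference of 0.585 in size and past 2-fold at 1. All members are named, as are the other pathway genes with the 3 highest and 3 lowest ratios. A gene the rule took is not reported here. Further subunits of the same enzymes were chosen after their values were seen. Members and lists were chosen with earlier results of these data known. Compartments and roles follow general knowledge. The steps were tested on simulated counts. Alternatives were pseudocounts of 0.1 and 5, FPKM, centring on the median of genes at 10 TPM or more, trimmed mean scaling, removal of the GC and length trend, other minimum levels and other compartment assignments. Python 3.11.15 was used.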

Additional observations from a re-analysis of the deposited data

How the results depend on the processing

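The member lower by 2-fold, TRMT6, lay just past that threshold (-1.02): with a pseudocount of 5, with FPKM, after centring, with trimmed mean scaling and without the trend over GC content and length the count of members lower by 2-fold was 0, and the differences of TRMT6 ran from -1.04 to -0.91. It was the 1 member lower by 1.5-fold or more under every alternative run; the count of such members ran from 3 to 5. With dual enzymes counted as mitochondrial, the mitochondrial median was -0.22 and its distance to the cytosolic and nuclear median 0.031. The median of the members ran from -0.25 to -0.15. Of the 54 members, 42 kept their sign under every alternative run; the cause of the other changes was not tested. Centring moved all differences by 0.09 (the median over genes at 10 TPM or more was -0.09), after which 72.2% of members and 49.1% of measured genes lay below 0. No member at the 1.5-fold threshold turned its direction. No paired analysis was possible because each group has 1 library. Depth limits CTU1, ELAC1 and PUS10 most, with the fewest read pairs.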
